A study of Mus musculus with 2 samples.

Results

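The kinesin genes of the deposited count table were compared between a control and a Ccdc25 knockdown library, with the motors of cell division set against the motors of neuronal transport. Members are the 36 protein-coding genes, of 19595 genes in the table, whose symbol is Kif followed by a digit. They were sorted by textbook role into 11 mitotic kinesins, 11 transport kinesins (6 enriched in neurons and 5 widely expressed), 4 other membrane traffic kinesins, 6 kinesins of cilia and centrioles, and 3 others. The remaining member, Kif1bp, is a protein that binds kinesins and has no motor. Kif2b, Kif12 and Kif28, also on the role lists, were not analysed here.

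Both groups are neural stem cells from ICR mouse brain, taken on embryonic day 13, and the labels name no agent or treatment other than those that define the groups. The control library is labelled psicor with the genotype WT, and the knockdown library is labelled sh1 with the genotype KO, although the design text speaks of a knockdown. The title asks about Ccdc25 in neurogenesis. The design text mentions triplicates, but there is 1 column of counts per group, and the labels do not say whether it is a culture, a pool or a sum.

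Kinesins are ATP-driven motors that walk along microtubules or take their ends apart. In dividing neural progenitors a specialised set builds the spindle, moves chromosomes and separates the daughter cells, and these genes are switched on together late in the cell cycle. In neurons a different set carries vesicles, mitochondria and receptors down axons and dendrites, and several of its genes are expressed mainly after cells leave the cell cycle. Other kinesins work in primary and motile cilia.

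The control library held 16549682 counts over all genes and the knockdown library 16058407. Ccdc25 itself had 553 and 411 counts, a ratio of 0.794 (95% counting interval 0.697 to 0.904). Its log2 fold of -0.33 was not beyond the lower quartile, -0.36, of the 14158 genes used for comparison below. Of those genes, 33.6% had an interval below 1 too, so the Ccdc25 value was not unusual among them. How far the knockdown lowered Ccdc25 was not tested. Levels are given as CPM, the count relative to the scaled library size, and a ratio is knockdown over control. With 1 library per group no difference was tested, and every interval (exact, binomial, conditional on the summed count of both libraries) reflects counting error alone. Neural stem cell markers were present in both libraries, as all 10 of the list stood between 13.8 and 2879 CPM in the control and between 40.7 and 3489 CPM in the knockdown library. All 10 were above their control level with an interval above 1, and 2 of them, Hes5 and Msi1, were at least 2-fold higher, with a median log2 fold of 0.75 for the list. Their part in the kinesin levels was not tested. In bulk RNA, fewer cells of a type and less RNA per cell cannot be told apart.

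All 36 kinesins passed the minimum of a mean of 1 CPM over both libraries. Kif6, Kif9 and Kif27 had a control level below 1 CPM and passed through the knockdown library, so the counts below are descriptive. Of the members, 5 were at least 2-fold lower in the knockdown library, namely Kif5a, Kif5c, Kif26b, Kif20a and Kif20b. Among all 14158 genes past the minimum, 7.76% were that much lower. Another 3 members, Kif19a, Kif9 and Kif6, were at least 2-fold higher, against 7.64% of all genes. Among the 12721 protein-coding genes alone these shares were 7.77% and 6.97%. The other 28 kinesins lay within 2-fold. For 24 members the whole counting interval was under 1, against 33.6% of all genes and 35.2% of protein-coding genes. For 10 members it was above 1, against 33.2% and 33.7%. The median log2 fold of the 36 was -0.38, beside -0.004 over all genes. The same shares over all genes apply to the partner and marker lists below.

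**Figure D1:**
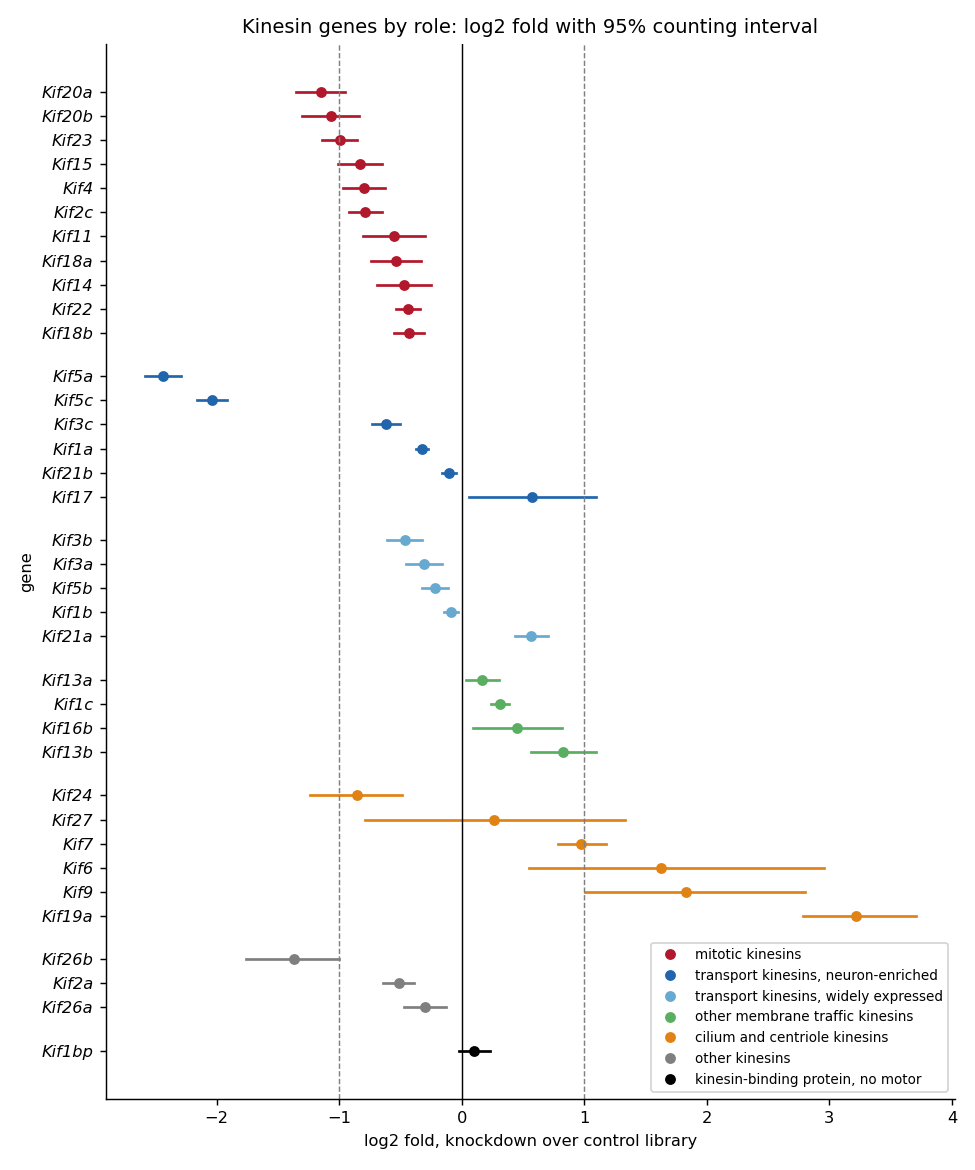
Log2 fold (knockdown over control library, horizontal axis) of each kinesin gene, grouped and coloured by role. Points are single genes, bars are 95% counting intervals and dashed lines mark 2-fold; every mitotic kinesin sits left of 0, while the transport kinesins run from -2.44 to 0.57.

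Because the mitotic kinesins were all lower in the knockdown library, the sequences upstream of their starts are shown first, beside those of transport kinesins. The sequences are RefSeq promoter windows of build GRCm38.p6, of which the 250 bases before the start were searched. Of the 36 members, 29 had a window, and 23 had one within 100 bases of the outer start of the gene in GENCODE M21. Only those 23 were searched, among them 7 mitotic and 7 transport kinesins. The motifs, searched on both strands, were the cell cycle homology region TTTGAA, the CCAAT box CCAAT, and E2F sites written TTTCCCGC, TTTGGCGC, TTTCGCGC or TTTGCCGC. The TTTGAA and CCAAT elements are known from promoters of genes expressed late in the cell cycle. In addition GTTGCC, a half-site of the RFX factors that act on cilium genes, was searched, and no other motif. Capitals mark a match, on either strand, in the 8 stretches that follow. Kif15 and Kif22 are shown over 30 bases only, since these bases overlap an annotated exon of the gene.
Kif11, chr19:37376262-37376381, plus strand: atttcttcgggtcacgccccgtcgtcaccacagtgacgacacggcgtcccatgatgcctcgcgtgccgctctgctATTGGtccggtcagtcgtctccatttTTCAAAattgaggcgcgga
Kif15, chr9:122951051-122951080, plus strand: gggGCGCCAAATTCAAAtctgcggccatct
Kif22, chr7:127042421-127042450, minus strand: ggggccccggtaaTTCAAAagagagaagcg
Kif18b, chr11:102925125-102925244, minus strand: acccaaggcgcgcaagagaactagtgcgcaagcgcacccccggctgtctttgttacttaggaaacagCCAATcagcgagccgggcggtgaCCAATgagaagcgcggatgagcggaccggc
Kif23, chr9:61946800-61946919, minus strand: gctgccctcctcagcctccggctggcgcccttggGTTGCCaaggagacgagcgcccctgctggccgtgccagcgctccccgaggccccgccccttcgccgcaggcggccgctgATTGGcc
Kif20b, chr19:34922238-34922357, plus strand: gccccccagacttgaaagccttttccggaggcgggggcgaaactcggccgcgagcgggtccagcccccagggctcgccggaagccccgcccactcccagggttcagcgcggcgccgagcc
Kif5c, chr2:49619166-49619285, plus strand: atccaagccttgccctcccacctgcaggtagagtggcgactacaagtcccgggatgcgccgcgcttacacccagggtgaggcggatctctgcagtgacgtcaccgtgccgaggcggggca
Kif3c, chr12:3365012-3365131, plus strand: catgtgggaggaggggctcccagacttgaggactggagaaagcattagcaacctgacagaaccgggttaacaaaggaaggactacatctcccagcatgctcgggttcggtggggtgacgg

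TTTGAA stood on the minus strand close to the start in 3 of the 7 mitotic kinesins searched, beginning 19 bases upstream in Kif11 and Kif15 and 17 in Kif22. Kif15 and Kif22 held a further match, at 234 and 215 bases upstream. Among the other kinesins searched Kif26b, which is not mitotic, held it as well. None of the 7 transport kinesins held it, and 13.1% of all 12439 windows that met the same distance rule did. In Kif15 an E2F site begins 27 bases upstream and runs directly into the TTTGAA match. CCAAT was found in 4 of the 7 mitotic kinesins (Kif11, Kif18b, Kif22 and Kif23) and in 3 of the 7 transport kinesins, against 37.6% of all windows. E2F letters occurred in Kif15 and Kif18a and in none of the transport windows, against 2.63% of all windows. The last 30 bases before the start, which hold both matches, overlap an annotated exon of Kif15 and, for Kif18a, one of Mettl15 on the opposite strand. GTTGCC occurred in 2 of 4 cilium and centriole kinesins searched, Kif24 and Kif9, and in 2 of 7 mitotic and 2 of 7 transport kinesins, against 10.9% of all windows. The matching windows of Kif24 and Kif9 overlap an annotated exon of the gene, and the Kif9 window that ends at the annotated gene start held no match. With so few windows these shares are descriptions, and Kif20b, which was among the lowest mitotic members, held none of the motifs in its 250 bases.

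All 11 mitotic kinesins had fewer scaled counts in the knockdown library, and in each case the counting interval excluded 1. Their log2 folds ran from -1.15 to -0.43 with a median of -0.79, a spread of 0.72 from the lowest to the highest. Their sum was 594 CPM in the control and 370.2 CPM after knockdown, a ratio of 0.623 (0.604 to 0.644). Log2 folds below 0 were found for 50.3% of all genes, and 2 of the 11 mitotic genes passed 2-fold.

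The motors of the central spindle and of cytokinesis ranged from the lowest ratio of the list, that of Kif20a, to one of the highest, that of Kif14. Kif20a (ENSMUSG00000003779), which brings the Aurora B complex to the central spindle, had 699 counts in the control and 294 after knockdown, or 41.5 and 18.6 CPM. Its ratio was 0.449 (0.391 to 0.516), but 29.3% of its exonic bases (1271) are shared with Cdc23 on the opposite strand, which had 1338 and 1169 counts. Use of strand in counting is not given in the sources used here, and the Kif20a value is therefore uncertain. Kif20b (ENSMUSG00000024795, chromosome 19, 34922361 to 34975745, plus strand), a midbody kinesin needed for abscission in cortical progenitors, shares no exonic bases and gave nearly the same result. It had 498 and 222 counts, or 29.6 and 14.1 CPM, giving a ratio of 0.476 (0.405 to 0.559). Kif23, the motor of centralspindlin, had 1230 and 577 counts, or 73.0 and 36.6 CPM. Its ratio of 0.501 (0.453 to 0.554) lies at the 2-fold line, just inside it with TMM scaling and beyond it under the other scalings tried. Kif4, a chromokinesin of the spindle midzone, had 830 and 447 counts, for a ratio of 0.575 (0.512 to 0.646), and it shares 832 exonic bases with Pdzd11. Kif14, which acts with citron kinase in cytokinesis, differed less, with 427 and 288 counts, for a ratio of 0.721 (0.619 to 0.839).

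Motors that shape the spindle and move chromosomes lay between ratios of 0.563 and 0.741. Kif15, which helps to keep the spindle bipolar, had 755 and 398 counts, for a ratio of 0.563 (0.498 to 0.637). Kif2c, the centromeric depolymerase, had 1334 and 724 counts, for a ratio of 0.580 (0.529 to 0.635). Kif11, the motor that pushes spindle poles apart, had 335 and 214 counts, or 19.9 and 13.6 CPM, giving a ratio of 0.683 (0.572 to 0.813). Kif18a, which damps chromosome oscillation at metaphase, had 503 and 325 counts, for a ratio of 0.690 (0.599 to 0.795). Nearest to the control level among them were Kif22 and Kif18b. Kif22, a chromosome arm kinesin, stood at 121 and 89.4 CPM, giving a ratio of 0.738 (0.689 to 0.790). Kif18b, a regulator of astral microtubules, stood at 80.3 and 59.5 CPM, giving a ratio of 0.741 (0.681 to 0.806).

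The quotient of 2 genes' ratios does not depend on how the libraries are scaled, and it was formed for 14 pairs chosen after their values were seen. Relative to Kif11, Kif23 was lower in the knockdown library by a factor of 0.734 (0.5998 to 0.900), Kif20b by 0.698 (0.549 to 0.887) and Kif20a by 0.658 (0.526 to 0.825). Relative to Kif22, Kif23 was lower by 0.679 (0.601 to 0.767). The cytokinesis motor Kif14, for which no quotient was formed, had a ratio nearer to 1 than that of Kif11, and the Kif20a quotient shares the uncertainty of its overlap with Cdc23.

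Partner genes of the spindle and of cytokinesis had a median log2 fold close to that of the mitotic kinesins. Of 15 such genes, 14 were below their control level and 13 had an interval below 1, against 50.3% and 33.6% of all genes. Their median was -0.73. Anln, a scaffold of the cleavage furrow, stood at 51.4 and 17.6 CPM, giving a ratio of 0.343 (0.299 to 0.393). Ect2, the exchange factor that centralspindlin recruits, had 891 and 401 counts, for a ratio of 0.481 (0.426 to 0.542). Aurka, the kinase of spindle poles, had a log2 fold of -0.96. The opposite direction was seen for Numa1, which anchors dynein at spindle poles, at 163 and 329 CPM, giving a ratio of 2.02 (1.93 to 2.11). Racgap1, the partner of Kif23 in centralspindlin, was named after its value was seen. It had a ratio of 0.691 (0.653 to 0.730), nearer to 1 than that of Kif23. Of the mitotic kinesins outside the naming rule, Cenpe of the kinetochore had a ratio of 0.484 (0.432 to 0.542) and the spindle motor Kifc1 one of 0.575 (0.524 to 0.630). All 8 markers of dividing cells were lower, with a median log2 fold of -0.72, a summed level of 1942 and 1250.3 CPM and no gene at 0. Their part in the mitotic kinesin result was not tested.

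**Figure D2:**
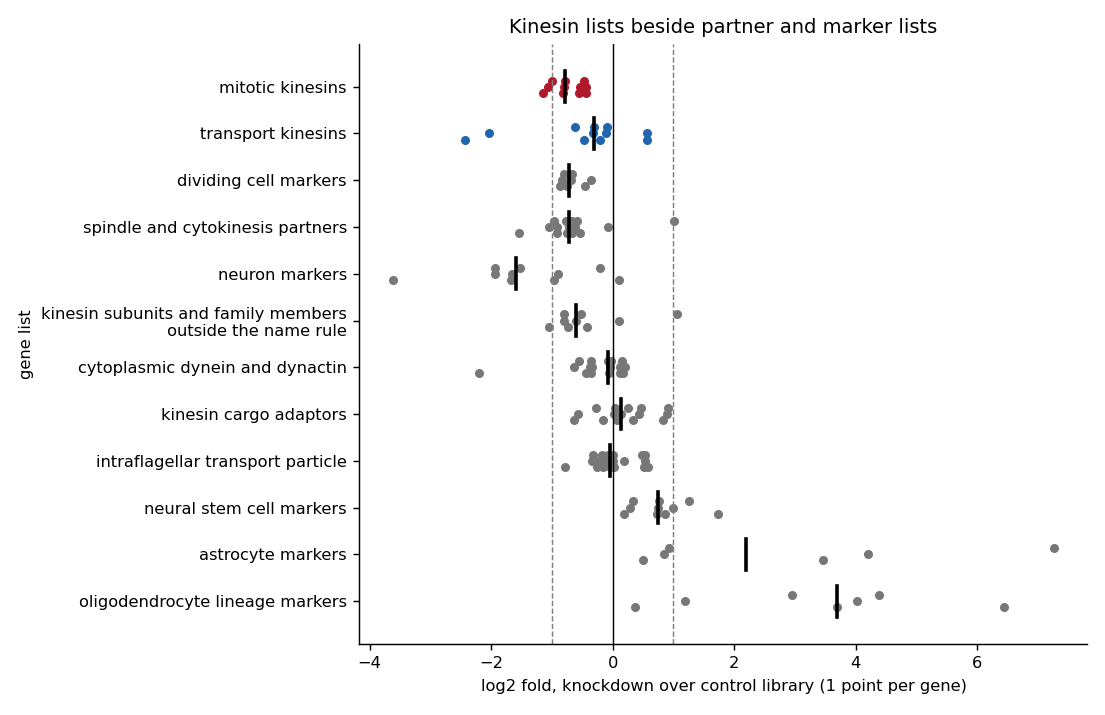
Log2 fold (knockdown over control library, horizontal axis) of genes past 1 CPM in the mitotic and transport kinesin lists and in partner and marker lists. Each gene is 1 point, with the list median as a black bar and 2-fold as dashed lines. The other kinesins and the mesenchyme, microglia and endothelial markers are not drawn. The mitotic kinesins (median -0.79) overlap the dividing cell markers (-0.72), and the transport kinesins (median -0.31) spread from beyond the median of the neuron markers (-1.59) to above 0.

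The transport kinesins differed widely among themselves. Of the 11, 2 were at least 2-fold lower and 9 lay within 2-fold, with 9 below and 2 above their control level and a median log2 fold of -0.31. Their log2 folds spanned 3.01, from -2.44 to 0.57. The transport median lay above the mitotic one by 0.48 on the log2 scale, although the 2 lowest kinesins of all were transport motors. Summed, the list stood at 1763 and 1323 CPM, giving a ratio of 0.751 (0.738 to 0.764), and Kif5a and Kif5c made up 58.6% of that difference. Without them the other 9 had a ratio of 0.873 (0.857 to 0.890) and a median log2 fold of -0.22. The 6 neuron-enriched members alone had a median of -0.47 and a summed ratio of 0.661, beside -0.79 and 0.623 for the mitotic list.

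**Figure D3:**
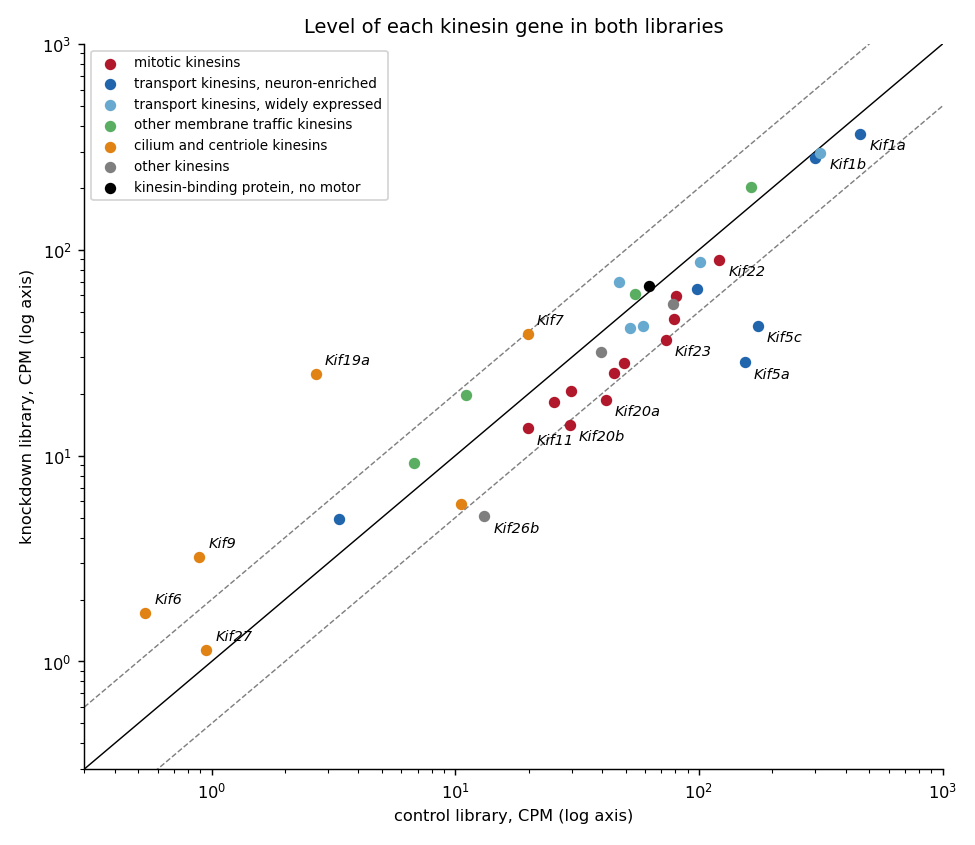
Level of each kinesin gene in CPM in the control library (horizontal log axis) and the knockdown library (vertical log axis), coloured by role. The solid line marks equal levels and dashed lines 2-fold; Kif5a and Kif5c lie furthest below the line and Kif19a furthest above it.

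Kinesin-1, the main axonal motor, was the family with the largest shift among the 5 whose composition was computed. Kif5a (ENSMUSG00000074657, chromosome 10, 127225696 to 127263348, minus strand) is a heavy chain of neurons and carries neurofilaments and other axonal cargo. It had 2594 counts in the control and 448 after knockdown, or 154 and 28.4 CPM. The ratio was 0.185 (0.167 to 0.204), a log2 fold of -2.44, and 0.996% of all genes lay further below. Kif5c (ENSMUSG00000026764, chromosome 2, 49619298 to 49774778, plus strand), the other neuronal heavy chain, had 2940 and 671 counts, or 174 and 42.5 CPM. Its ratio was 0.244 (0.224 to 0.265), and 1.72% of all genes lay further below. Kif5b, the heavy chain of most cell types, had 1704 and 1372 counts, or 101 and 87.0 CPM, giving a ratio of 0.860 (0.801 to 0.924). Relative to Kif5b, Kif5a was lower by a factor of 0.214 (0.189 to 0.243) and Kif5c by 0.283 (0.254 to 0.317). Neither neuronal gene shares exonic bases with another gene in GENCODE M21.

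Levels of different genes were compared per kilobase of annotated exon. On that scale Kif5c stood at 24.4 and Kif5a at 22.0 CPM per kb in the control, both above Kif5b at 12.7. In the knockdown library Kif5b came first, at 10.9, followed by Kif5c at 5.96 and Kif5a at 4.06 CPM per kb. Kif5b thus made up 21.4% of the family in the control and 52.1% after knockdown. Among the 36 members Kif5c went from rank 4 to rank 18 and Kif5a from rank 7 to rank 23.

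**Figure D4:**
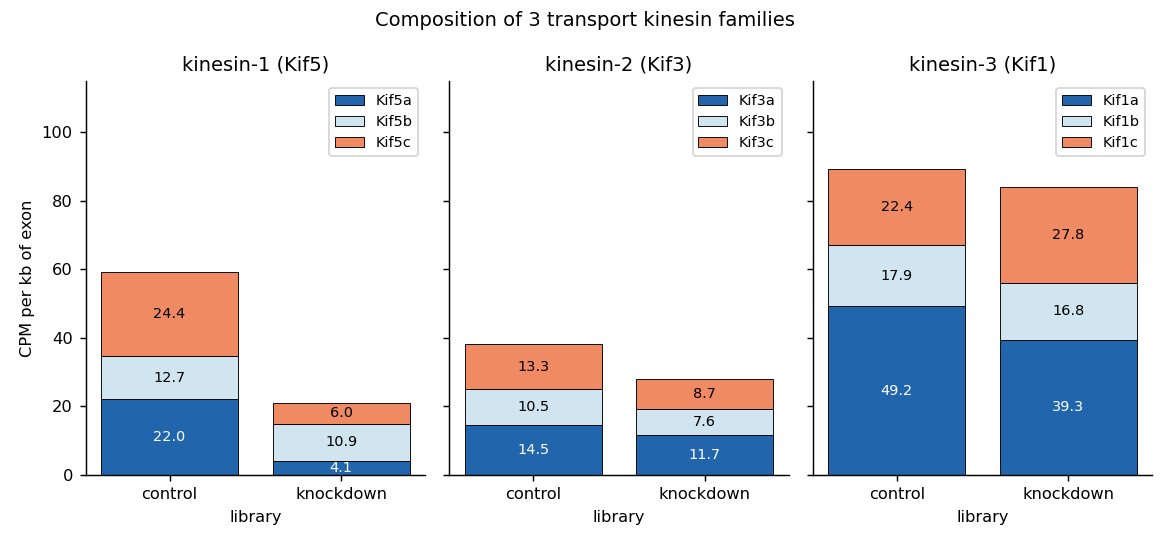
Level per kilobase of exon (CPM per kb, vertical axis from 0) of the members of 3 transport kinesin families, stacked, in the control and the knockdown library. The kinesin-1 bar goes from 59.1 to 20.9 CPM per kb with Kif5b at 12.7 and 10.9, while the kinesin-2 bar goes from 38.2 to 27.9 and the kinesin-3 bar from 89.4 to 83.9.

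Kinesin-2 motors, built of Kif3a with Kif3b or Kif3c, were all lower by less than 2-fold. Kif3c, the neuronal member, had 1661 and 1013 counts, or 98.6 and 64.2 CPM, giving a ratio of 0.652 (0.602 to 0.705). It shares 2617 exonic bases (35.3% of its own) with the antisense gene 1110002L01Rik, which had only 41 and 38 counts. Since the use of strand in counting is not given, the Kif3c values are uncertain, as for Kif20a. Kif3b, which works in vesicle and ciliary transport, had 993 and 673 counts, for a ratio of 0.724 (0.656 to 0.799). Kif3a, the common subunit, had 875 and 661 counts, for a ratio of 0.807 (0.729 to 0.894). The quotient of Kif3c over Kif3a, 0.807 (0.709 to 0.919), lay below 1, while that of Kif3c over Kif3b, 0.900 (0.792 to 1.02), included 1. Kif3c made up 34.8% of the family per kilobase in the control and 31.0% after knockdown. Their accessory subunit Kifap3, named after its value was seen, stood at 114.8 and 68.7 CPM, giving a ratio of 0.598 (0.555 to 0.645). Kif17, a homodimeric kinesin-2 of dendrites, was in the opposite direction at a low level, with 56 and 78 counts, for a ratio of 1.49 (1.04 to 2.14).

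The kinesin-3 and kinesin-4 transport motors all lay within 2-fold, with 3 below and 1 above the control level. Kif1a (ENSMUSG00000014602, chromosome 1, 93015464 to 93101951, minus strand), which carries synaptic vesicle precursors, was the most abundant kinesin per kilobase in both libraries. It had 7730 and 5785 counts, or 459 and 367 CPM, giving a ratio of 0.800 (0.773 to 0.828). Kif1b, a carrier of mitochondria and vesicle precursors, had 5303 and 4667 counts, for a ratio of 0.940 (0.904 to 0.978). Kif21b, a kinesin of dendrites and axons that limits microtubule growth, had 5057 and 4407 counts, for a ratio of 0.931 (0.894 to 0.970). Its relative Kif21a was higher in the knockdown library, with 791 and 1096 counts, for a ratio of 1.48 (1.35 to 1.62). Relative to Kif1b, Kif1a was lower by a factor of 0.850 (0.807 to 0.896), and relative to Kif21a, Kif21b by 0.629 (0.568 to 0.696). In each of these pairs the member listed as neuron-enriched was the lower one, with quotients nearer to 1 than in kinesin-1.

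Neuron markers were lower in 9 of 10 cases and at least 2-fold lower in 6, against 50.3% and 7.76% of all genes. The markers summed to 3509.95 CPM in the control and 1508 CPM after knockdown, and none was at 0. Their median log2 fold was -1.59, beside -0.47 for the 6 neuron-enriched and -0.22 for the 5 widely expressed transport kinesins. The part of neuron content in the Kif5a and Kif5c values was not tested. Kif5a and Kif5c lay beyond the marker median, while Kif1a and Kif21b, at log2 folds of -0.32 and -0.10, lay far from it. Only 2 markers, named after their values were seen, were as near to 0, Elavl4 at -0.20 and Map2 at 0.11. All other neuron markers lay between -0.90 (Elavl3) and -3.62 (Syt1).

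Kinesin light chains, which link kinesin-1 to cargo, did not all go the way of Kif5a. Klc1, the main neuronal light chain, stood at 454 and 299.9 CPM, giving a ratio of 0.660 (0.637 to 0.685), and Klc2 at 126 and 87.3 CPM, both named after their values were seen. Klc4 was higher in the knockdown library, with 426 and 834 counts, for a ratio of 2.09 (1.86 to 2.36). Of the 9 subunits and kinesins outside the naming rule, 1 was at least 2-fold lower (Cenpe), 1 at least 2-fold higher (Klc4) and 7 lay within 2-fold. Kifc2, a minus-end kinesin of neurons, had a ratio of 0.572 (0.521 to 0.629). Kifc3, another minus-end kinesin, had a ratio of 1.08 (0.953 to 1.22), an interval that includes 1, and was named after its value was seen.

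Cargo adaptors of kinesins all lay within 2-fold, and 11 of 15 were above their control level, with a median log2 fold of 0.14. Among all genes, 7.76% were at least 2-fold lower, 7.64% at least 2-fold higher and 50.3% below their control level. Fez1, an axonal kinesin-1 adaptor, had a log2 fold of 0.91, Plekhm2, which couples lysosomes to kinesin-1, 0.90, and the huntingtin-associated Hap1 0.83. Below the control level were Madd, the adaptor of Kif1 motors, at -0.64, and the mitochondrial adaptor Trak2 at -0.57 (named after its value was seen). Of 17 genes of cytoplasmic dynein and dynactin, the motor of retrograde transport, 16 lay within 2-fold, with a median of -0.08. The exception was Dync1i1, the neuronal intermediate chain, which had 1000 and 204 counts, for a ratio of 0.218 (0.187 to 0.254), in the range of Kif5a and Kif5c. Its widely expressed relative Dync1i2, named after its value was seen, had a ratio of 0.778 (0.738 to 0.819). The light intermediate chain Dync1li1 had a log2 fold of -0.65, the light chain Dynll1 -0.56 and the dynein regulator Nde1 -0.44.

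The 4 other membrane traffic kinesins were all above their control level, within 2-fold, each with an interval above 1. Kif13b, a kinesin of cell polarity and endocytic traffic, had 187 and 311 counts, or 11.1 and 19.7 CPM, giving a ratio of 1.78 (1.48 to 2.14). Kif1c, a vesicle motor of many cell types, stood at 163 and 202 CPM, giving a ratio of 1.24 (1.18 to 1.31), and became the member with the second highest level per kilobase. Kif16b, a motor of early endosomes, had 114 and 146 counts, for a ratio of 1.37 (1.06 to 1.76). Kif13a, a motor of endosomes, had 917 and 965 counts, for a ratio of 1.12 (1.03 to 1.23).

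Kinesins of cilia and centrioles went in both directions. Kif19a (ENSMUSG00000010021, chromosome 11, 114765388 to 114790739, plus strand), a depolymerase that limits the length of motile cilia, had 45 counts in the control and 395 after knockdown, or 2.67 and 25.05 CPM. Its ratio of 9.38 (6.88 to 13.1) was the highest of all members, and 0.650% of all genes lay further above. Kif9 (ENSMUSG00000032489, chromosome 9, 110476958 to 110525179, plus strand), a kinesin of motile cilia, had 15 and 51 counts, for a ratio of 3.63 (2.01 to 6.96). Kif6 (ENSMUSG00000023999, chromosome 17, 49615136 to 49909847, plus strand), a kinesin of ependymal cilia, had 9 and 27 counts, for a ratio of 3.21 (1.46 to 7.75). The last 2 rest on few counts, and Kif6 shares 62 exonic bases with an antisense gene. Kif27, also of motile cilia, had 16 and 18 counts and an interval of its ratio from 0.579 to 2.52, so no difference was detectable at this depth.

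Kif7, which regulates Gli factors at the tip of the primary cilium, had 335 and 617 counts, or 19.9 and 39.1 CPM. Its ratio of 1.97 (1.72 to 2.25) lies just inside the 2-fold line, and it shares 877 exonic bases with the antisense gene 9330171B17Rik. Kif24, which acts with Cp110 at centrioles of cycling cells and holds back cilium growth, was lower, with 178 and 92 counts, for a ratio of 0.552 (0.425 to 0.714). The 19 genes of the intraflagellar transport particle, the cargo of ciliary kinesin-2, all lay within 2-fold, with 11 below and 8 above the control level and a median log2 fold of -0.04. Over all genes, 7.76% were at least 2-fold lower, 7.64% at least 2-fold higher and 50.3% below the control level. At the ends of the particle list stood Ttc21b at -0.78, Ift140 at 0.58, Ift52 at 0.53 and Ift46 at 0.52.

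Of the remaining members, Kif26b (ENSMUSG00000026494, chromosome 1, 178529125 to 178939200, plus strand), a motor-like protein of adhesion and mesenchyme, was the lowest. It had 222 and 80 counts, or 13.2 and 5.07 CPM, giving a ratio of 0.385 (0.294 to 0.499), and it shares 909 exonic bases with the antisense gene Gm16564. Mesenchyme markers were lower as well: all 5 past the minimum were at least 2-fold lower, and Lum was at 0 in the knockdown library. Postn and Dcn were below 1 CPM in the knockdown library and passed through the control library, so this count is descriptive. The 6 markers summed to 319 and 38.3 CPM, mostly Acta2 at 261 and 22.8 CPM. Their part in the Kif26b value was not tested. Kif26a had 665 and 505 counts, for a ratio of 0.811 (0.721 to 0.912). Kif2a, a depolymerase that prunes neurites and also works at spindle poles, had 1318 and 863 counts, for a ratio of 0.700 (0.641 to 0.763), and it shares 1229 exonic bases with Dimt1, which had 275 and 190 counts. The kinesin-binding Kif1bp had 1051 and 1056 counts and an interval of its ratio from 0.985 to 1.17, which includes 1.

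Markers of other cells that such cultures can hold differed too. All 6 astrocyte markers were above their control level, with a median log2 fold of 2.19 and none at 0, but only 3 passed 2-fold. One of those 3, S100b, had a control level below 1 CPM and passed the minimum through the knockdown library. The list summed to 227 and 939 CPM, and most of that rise was Gfap, at 3.09 and 481 CPM. All 7 markers of the oligodendrocyte lineage were above their control level too, and 6 passed 2-fold. The median log2 fold of that list was 3.70, and none was at 0. Their sum, 1173 and 2277 CPM, was mostly Olig2, which stood at 1087 and 1401 CPM. The 8 microglia and macrophage markers summed to 19.1 and 11.2 CPM, mostly Cd68 at 12.8 and 9.57 CPM. Csf1r, C1qb, Cx3cr1 and Tmem119 were at 0 in the knockdown library, with only 21, 14, 8 and 6 counts in the control. The 4 endothelial markers measured summed to 3.38 and 1.27 CPM, with Cdh5 at 0 in the knockdown library. The part of these cells in the kinesin levels was not tested.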

How the data were processed

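Messenger RNA was sequenced from 1 control and 1 knockdown library. Per the submitters' processing notes the tools were TopHat2 2.0.12, Bowtie2 2.2.3 and HTSeq 0.6.0 and the build mm9, with no settings. The deposited positions nevertheless match GRCm38 (35 of the 36 kinesins have the same start and end in GENCODE M21). The authors deposited raw counts per gene per the file headers. They also deposited CPM (counts times 1 factor per library, with 0 replaced by 0.5), their ratio as a fold change, its log2 and p-values from a test not given in the sources used here. The authors' CPM served as an alternative, and their p-values were not used.

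Counts were scaled with edgeR 4.0.16 TMM factors (1.018 and 0.982). The log2 fold adds 0.5 counts, and CPM and ratios do not. Intervals are exact conditional Clopper-Pearson ones at 95%. PCR copies are not independent molecules. Genes needed a mean of 1 CPM, and 2-fold was the threshold. Exon lengths and overlaps come from GENCODE M21. Calculations were tested on simulated data. The members and lists were chosen with earlier results of these data known. All kinesins are named, and of each partner list up to 4 genes by absolute log2 fold; others are marked. Alternatives were DESeq2 1.42.0 factors, total counts, other minimums, prior counts, thresholds and list members.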

Additional observations from a re-analysis of the deposited data

How the results depend on the processing

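With 1 library per group, no replicate could be left out, and depth limits the low members Kif6, Kif9, Kif17 and Kif27 most. No paired analysis was possible because each group has 1 library. At 1.5-fold instead of 2-fold, 11 kinesins were lower and 5 higher, against 15.7% and 16% of all genes. With a minimum of 10 CPM, 1 kinesin was at least 2-fold higher, since Kif6 and Kif9 drop out by construction. Without members that share exonic bases, an alternative chosen after seeing the data, 3 were at least 2-fold lower. The transport median became -0.10 with the 4 membrane traffic kinesins added and -0.47 for the neuron-enriched members only. The mitotic median became -0.67 both without Kif20a and with Kif2a added. With DESeq2 factors, total counts or the authors' CPM, 6 kinesins were at least 2-fold lower, the sixth being Kif23. The share of all genes past 2-fold was computed only with TMM scaling and the 1 CPM minimum. No such share therefore stands beside these alternative 2-fold counts. The difference between transport and mitotic medians cannot move with a library scaling, and it was 0.47 with the minimum of 10 CPM. Total counts lowered every kinesin by about 0.05 on the log2 scale, and no member changed direction.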
